A study of Mus musculus with 6 samples.

Results

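Genes of ribosome biogenesis and of the nucleolus were examined in the E12.5 mouse maxillary prominence, in wild-type (WT) embryos and in embryos that overexpressed Dlx2 in neural crest-derived cells (Dlx2OE). The genes were taken by symbol from a list of 39 names that covers RNA polymerase I and its partners, nucleolar scaffold proteins, small nucleolar ribonucleoproteins (snoRNPs), the assembly factors of both ribosomal subunits, Myc and Mycn, and the craniofacial disease genes Tcof1, Polr1c and Polr1d. Of these names, 38 matched a gene in the count files and 1 was not a gene symbol. All 38 passed the filter on low counts, out of 53801 genes in the files and 17514 genes tested.

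The WT group was 3 samples of wild-type maxillary prominence and the Dlx2OE group was 3 samples of the genotype Wnt1cre; Rosa26Dlx2/-, and the strain of both is labelled C57BL/6 (C57BL/6J in the protocols). In the latter, a CAG-LSL-Dlx2-3xFlag cassette at the Rosa26 locus is switched on by Cre recombinase from the Wnt1 promoter, so that neural crest-derived cells carry the active cassette, whereas epithelium, endothelium, blood and muscle of the same tissue derive from other lineages. No group carried Cre alone, and the effects of Wnt1cre and of Dlx2 cannot be told apart. Per the labels the RNA came from 7 littermates and per the methods from 6, so that a sample may hold more than 1 embryo, and nothing states how embryos were divided among the samples.

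Ribosomes are made in the nucleolus. RNA polymerase I, brought to the ribosomal DNA by UBTF and RRN3, transcribes a long precursor RNA, snoRNPs modify and help to fold it, and successive assembly factors cleave it and join it with ribosomal proteins into the small and the large subunit. MYC and MYCN are transcription factors known to raise the expression of many of these genes in growing cells. Cranial neural crest cells are known to be sensitive to this pathway. Loss-of-function variants of TCOF1, POLR1C and POLR1D cause Treacher Collins syndrome, in which the maxilla and the zygomatic bones are small, and POLR1A variants cause a related facial dysostosis.

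Dlx2 was measured at 42.9, 35.04 and 45.2 CPM (counts scaled to a common library size) in the WT samples and at 119, 131 and 123 CPM in the Dlx2OE samples, a log2 fold change of 1.60 ± 0.118 (SE; adjusted p = 0.00241, edgeR's quasi-likelihood F test, Benjamini-Hochberg). All 3 Dlx2OE samples lay above all 3 WT samples, as their labels state. Samples had 26155500 to 31308813 counts on genes. Among markers of the labelled tissue, 11 of 11 mesenchymal genes, such as Prrx1, Twist1 and Pdgfra, were detected. Their summed levels were 2979 to 3596 CPM in WT and 3830 to 3975 CPM in Dlx2OE, without overlap. The log2 fold change was above 0 for 9 of these genes and below 0 for 2. Markers of other cell types were also present. The sums did not overlap for 2 of these lists, as 10 erythroid genes summed to 3326 to 4442 CPM in WT and 2006 to 2597 CPM in Dlx2OE, and 9 macrophage genes to 80.7 to 94.0 CPM and 47.2 to 60.2 CPM. The sums overlapped between genotypes for 9 neuronal genes (62.6 to 312 CPM and 188 to 975 CPM), 10 epithelial genes (789 to 1349 CPM and 578 to 1778 CPM), 9 endothelial genes (322 to 479 CPM and 227 to 361 CPM), 8 muscle genes (124 to 241 CPM and 57.9 to 177 CPM) and 9 genes of glia and melanoblasts (130.01 to 143 CPM and 103 to 199 CPM, with Foxd3 at or under 3 counts in every sample). Where the sums overlapped, single genes could still share a direction. The log2 fold change was above 0 for all 9 neuronal genes and below 0 for all 9 endothelial and all 8 muscle genes. The part of these shifts in the results was not tested. In such bulk tissue, fewer cells of a type and less RNA per cell cannot be told apart.

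Promoters are shown for 4 of the genes the results turn on, to set the gene that passed the test beside genes of the RNA polymerase I machinery and of the small subunit, with and without a MYC-type E-box. Each run covers 250 bases before to 50 bases after the RefSeq start site, 5′ to 3′ on the gene's strand, on the build GRCm38.p6, and capitals mark the E-box CACGTG, the core sequence bound by MYC and MYCN dimers. The regions are chr12:12941787-12942086, minus strand (Mycn), chr16:13780449-13780748, plus strand (Rrn3), chr10:88826765-88827064, minus strand (Utp20), and chr17:46247996-46248295, minus strand (Polr1c).
Mycn: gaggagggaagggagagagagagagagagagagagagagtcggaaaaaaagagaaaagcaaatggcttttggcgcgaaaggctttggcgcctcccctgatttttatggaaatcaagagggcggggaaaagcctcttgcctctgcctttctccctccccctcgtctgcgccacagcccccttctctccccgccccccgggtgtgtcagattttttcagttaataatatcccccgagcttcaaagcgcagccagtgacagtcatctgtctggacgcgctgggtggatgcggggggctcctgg
Rrn3: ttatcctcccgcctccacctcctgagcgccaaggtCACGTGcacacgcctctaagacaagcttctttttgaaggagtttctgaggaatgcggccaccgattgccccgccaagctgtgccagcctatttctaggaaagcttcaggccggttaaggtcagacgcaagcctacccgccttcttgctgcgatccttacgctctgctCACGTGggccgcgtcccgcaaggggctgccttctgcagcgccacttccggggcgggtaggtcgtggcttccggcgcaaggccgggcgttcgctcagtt
Utp20: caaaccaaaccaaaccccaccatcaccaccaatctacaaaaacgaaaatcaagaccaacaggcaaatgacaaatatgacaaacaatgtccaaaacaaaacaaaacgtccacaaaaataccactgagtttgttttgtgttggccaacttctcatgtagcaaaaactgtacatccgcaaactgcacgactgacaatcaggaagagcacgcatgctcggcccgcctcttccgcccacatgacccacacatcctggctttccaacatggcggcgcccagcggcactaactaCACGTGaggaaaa
Polr1c: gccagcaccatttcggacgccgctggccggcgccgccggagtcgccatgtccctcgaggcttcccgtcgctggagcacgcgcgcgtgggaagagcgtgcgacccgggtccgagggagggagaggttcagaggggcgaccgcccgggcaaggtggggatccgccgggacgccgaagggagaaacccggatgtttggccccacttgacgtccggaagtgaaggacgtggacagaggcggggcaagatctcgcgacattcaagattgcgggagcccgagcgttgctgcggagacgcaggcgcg

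CACGTG reads the same on both strands. RefSeq promoters, 39 windows in all since some genes have several start sites, were matched for 31 of the 38 genes and were not used here for Tcof1, Sbds, Bop1, Fbl, Npm1, Rrp12 and Myc. The 6 letters were found in a promoter of 6 of the 31 genes (19.4%), against 2187 of all 27025 genes with a promoter (8.09%) and 1351 of the 12215 such genes that were tested (11.1%). Counted by window, they were in 6 of 39 (15.4%), against 2349 of 32851 for all genes (7.15%) and 1453 of 15599 for genes tested (9.31%). The 6 genes were Rrn3, with matches 215 and 48 bases upstream of the start, Nop2, with a match 60 bases upstream, and Utp20, Mybbp1a, Wdr43 and Pes1, with matches 37, 40, 17 and 2 bases downstream. Median log2 fold changes were 0.13 for the 6 genes with a match and -0.05 for the 25 without one, and 2 and 13 genes of each were below 0. The promoters shown are not typical of these sets. Utp20 (0.38) and Rrn3 (0.31) had the highest log2 fold changes of the 6, whereas Wdr43 and Pes1 were at -0.09 and -0.08. Those shown without a match, Mycn and Polr1c, were at 0.67 and -0.39. A match describes the letters of this window and is not evidence of binding.

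The first question was whether the pathway moved as a whole between the genotypes. The median log2 fold change of the 38 genes, Dlx2OE against WT, was 0.0016, with an interquartile range of -0.19 to 0.20, and the median of all 17514 genes was 0.0028. In all, 20 of the 38 genes were above 0 and 18 below, and 49.7% of all genes were below 0. One gene, Mycn, passed an adjusted p of 0.05 in edgeR with adjustment by Benjamini-Hochberg, that is 1 of 38 or 2.63%, whereas 6.45% of all genes tested did so. Mycn was higher in Dlx2OE, as were 2.99% of all genes, and none of the 38 was lower at this threshold, against 3.46% of all genes. None of the 38 also passed a log2 fold change of 1 in either direction, in edgeR or in DESeq2, and 3.12% of all genes did in edgeR. At an unadjusted p under 0.05, 11 of the 38 genes and 29.5% of all genes passed, and DESeq2 passed 3 of the 38 genes (Mycn, Polr1d and Nhp2) and 12.7% of all genes. With each sample corrected for its trends with gene length and GC content, Mycn was again the 1 gene of the 38 past the threshold, against 4.33% of all genes.

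**Figure D1:**
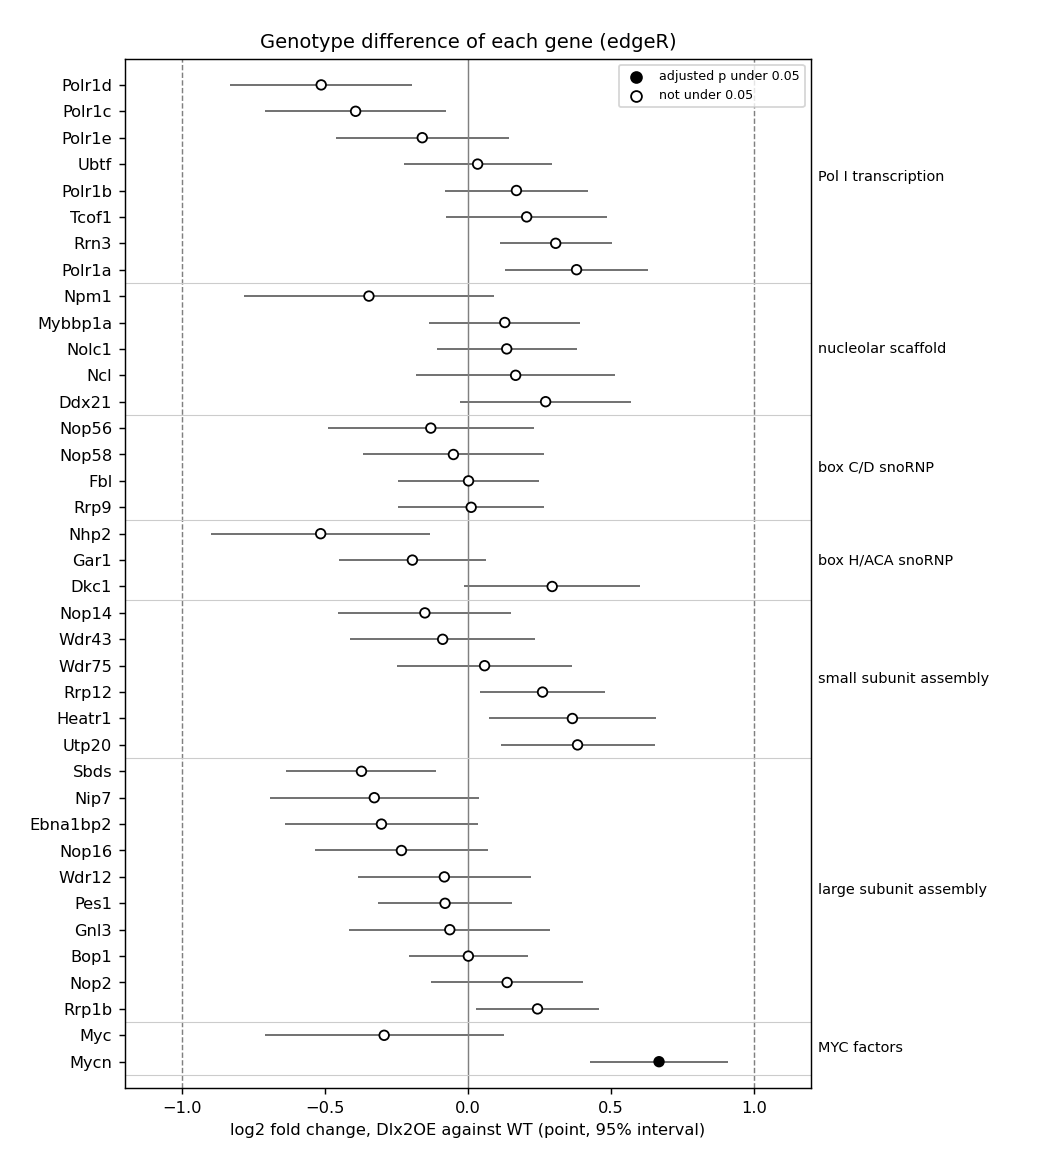
Log2 fold change, Dlx2OE against WT, of each of the 38 genes with its 95% confidence interval, ordered by role in ribosome biogenesis. Every interval lies between -1 and 1, Mycn (0.67) is the one gene past an adjusted p of 0.05, and Nhp2 (-0.52) and Polr1d (-0.51) are the lowest.

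The 37 genes that missed the threshold were bounded by the data as well. Their 95% confidence intervals ran from -0.90 at the lowest to 0.66 at the highest, that is from a fold of 0.536 to one of 1.58, and all 38 intervals lay within 2-fold either way. The intervals of 11 genes excluded 0. The groups did not overlap in CPM for 11 genes, of which 7 were higher in Dlx2OE (Polr1a, Rrn3, Utp20, Heatr1, Rrp12, Rrp1b and Mycn) and 4 lower (Polr1c, Polr1d, Nhp2 and Sbds), and 34.1% of all genes did not overlap. For 10 genes the log2 fold change was within 0.1 of 0. They include Fbl, the methyltransferase of the box C/D snoRNP, Pes1, Bop1 and Wdr12, the subunits of the PeBoW complex of the large subunit, and Ubtf.

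**Figure D2:**
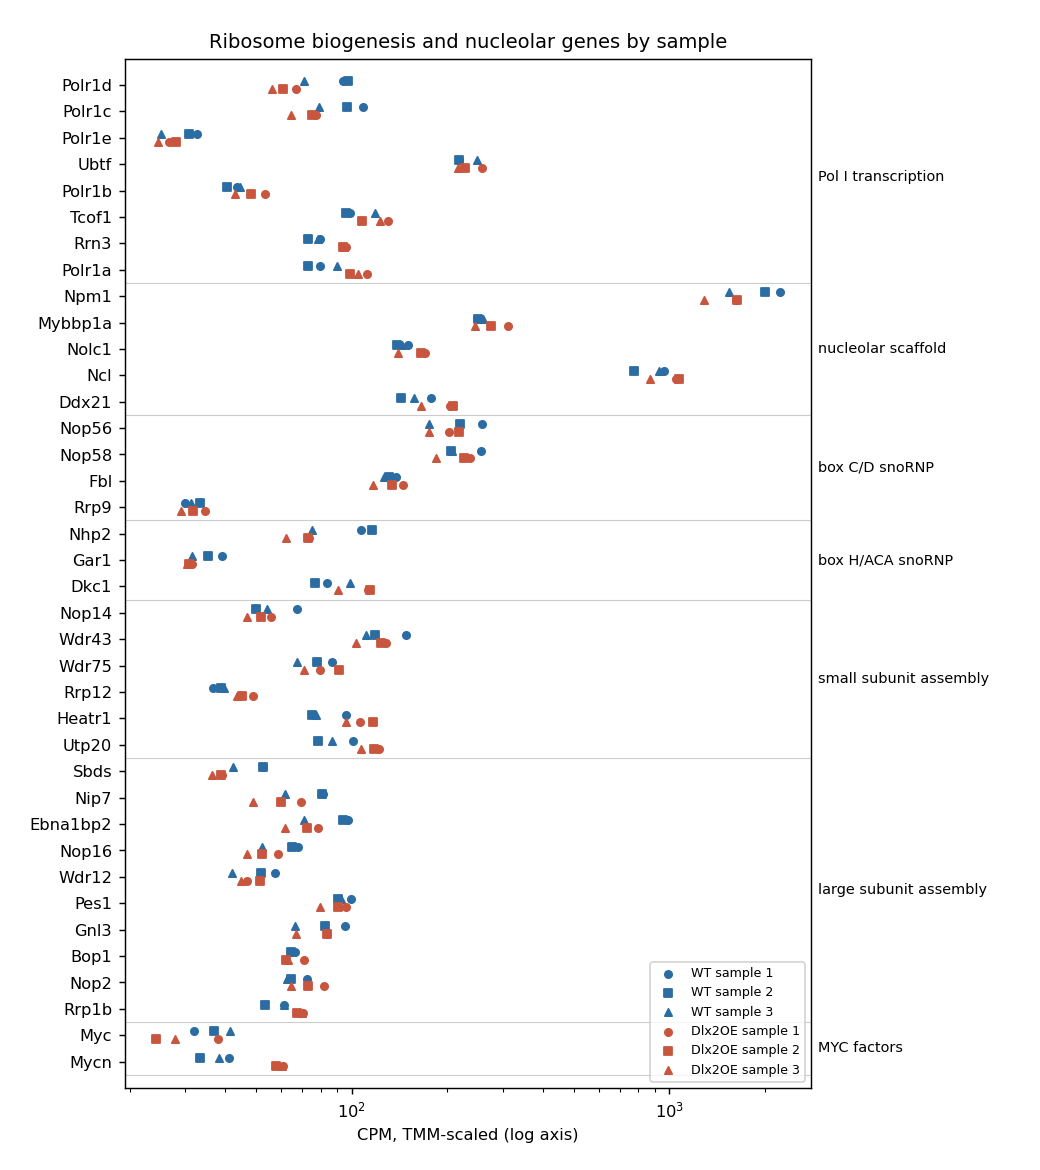
Level of each of the 38 genes in every sample, as TMM-scaled CPM on a log axis, with 3 WT and 3 Dlx2OE samples per gene. Npm1 and Ncl lie far above the rest, Polr1e and Rrp9 are among the lowest, and the 2 groups are interleaved for most genes.

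All of the genes were well measured, with at least 664 counts in every library. Per exon length, on the TPM scale (counts divided by exonic length and scaled to the same total in each sample) in WT, Npm1 was the highest at 2147 ± 236 TPM (SD, n = 3), followed by Ncl at 264 ± 53.3 TPM and Nhp2 at 256 ± 27.9 TPM. Wdr12 was the lowest at 12.6 ± 1.15 TPM, below Polr1a at 20.7 ± 4.79 TPM and Polr1b at 22.3 ± 3.76 TPM, so the 2 largest subunits of RNA polymerase I lay well under Polr1c (124 ± 11.8 TPM) and Polr1d (85.4 ± 4.81 TPM), which RNA polymerase III shares. Ncl and Nhp2 did not differ beyond their spread, nor did Polr1a and Polr1b. These lengths join the exons of all annotated transcripts, so a gene with a long rare transcript can be understated.

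The MYC factors gave the one call. Mycn (ENSMUSG00000037169, chr12:12936093-12941914, minus strand, GRCm38), which is expressed in many embryonic progenitor cells, was measured at 41.2, 33.4 and 38.3 CPM in the WT samples and at 61.0, 57.9 and 60.5 CPM in the Dlx2OE samples. All 3 Dlx2OE samples lay above all 3 WT samples. The mean level rose from 37.6 ± 3.95 to 59.8 ± 1.67 CPM (SD, n = 3 each), which is a fold of 1.59 (95% confidence interval 1.34 to 1.88) and a log2 fold change of 0.67 ± 0.105 (SE; adjusted p = 0.0174, edgeR with Benjamini-Hochberg adjustment; DESeq2 adjusted p = 0.000187). With any 1 sample removed the estimate was 0.58 to 0.73, but Mycn missed the threshold in edgeR without WT sample 2 (0.0814), Dlx2OE sample 2 (0.0614) or Dlx2OE sample 3 (0.0563). With length and GC correction it was 0.70 (edgeR adjusted p = 0.0279).

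Summed marker levels are given beside this result. The summed level of the 9 neuronal genes in samples 1, 2 and 3 was 62.6, 312 and 169.9 CPM for WT and 188, 475 and 975 CPM for Dlx2OE. That of the 11 mesenchymal genes was 3112, 2979 and 3596 CPM for WT and 3830, 3975 and 3934 CPM for Dlx2OE. The neuronal sums overlapped between the genotypes, whereas the mesenchymal sums did not. Yet the log2 fold change was above 0 for all 9 neuronal genes, with a median of 1.65, beside 0.16 for the mesenchymal genes. Of the neuronal genes, 0 passed an adjusted p of 0.05 in edgeR (6.45% of all genes). The mesenchymal genes did not all move together, as the log2 fold change was above 0 for 9 and below 0 for 2. With length and GC correction 5 of the 11 were below 0. Pax9 was lower, at 89.6, 93.2 and 117 CPM in WT and at 37.3, 51.1 and 51.8 CPM in Dlx2OE. The part of either cell type in the Mycn levels was not tested.

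Myc, the paralogue of Mycn, was measured at 32.0, 37.0 and 41.3 CPM in WT and at 38.1, 24.2 and 27.8 CPM in Dlx2OE. The groups overlapped, and its log2 fold change of -0.29 ± 0.181 (SE; edgeR adjusted p = 0.309) did not pass the test, with a corrected value of -0.19 (edgeR adjusted p = 0.542). The ratio of Mycn to Myc, 1 of 5 per-sample quantities computed after the values had been seen, was 0.902 to 1.29 in WT and 1.60 to 2.39 in Dlx2OE. Its groups did not overlap, and the two-sided exact permutation test gave p = 0.1, the smallest value that 3 against 3 samples allow, also after adjustment over the 5. The sum of both genes was 70.4 to 79.6 CPM in WT and 82.1 to 99.0 CPM in Dlx2OE, also without overlap (exact permutation p = 0.1). Of 13 further MYC network genes, such as the partners and antagonists of the Max family, none passed an adjusted p of 0.05 in edgeR. An unadjusted p under 0.05 in edgeR was reached by 3 (29.5% of all genes), and DESeq2 passed 1 (12.7% of all genes). The median log2 fold change was -0.01.

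**Figure D3:**
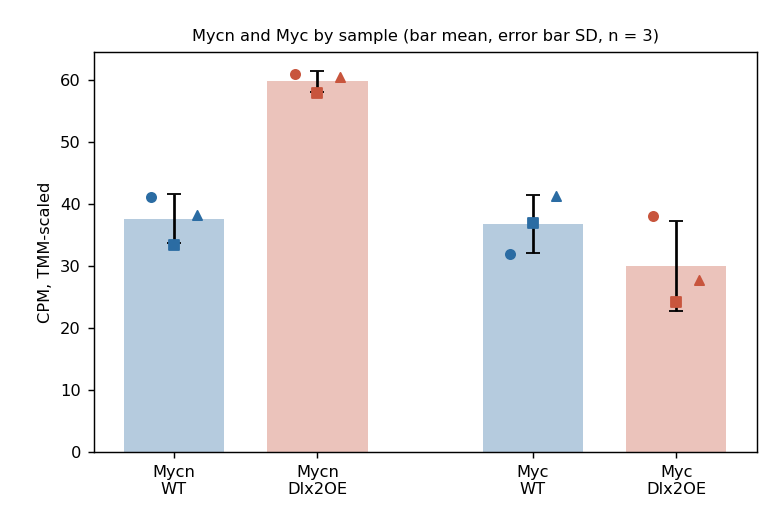
Mycn and Myc in each sample as TMM-scaled CPM, with bars for the mean and error bars for the SD of 3 samples per genotype (circle, square and triangle for samples 1, 2 and 3). The Dlx2OE samples lie at 57.9 to 61.0 CPM for Mycn, above the 33.4 to 41.2 CPM of WT, whereas for Myc the 2 genotypes overlap.

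The group of RNA polymerase I genes holds the 3 disease genes, and none of its members passed the test in edgeR. Tcof1 encodes treacle, a nucleolar protein that links RNA polymerase I transcription with RNA processing. It was measured at 98.7, 95.8 and 119 CPM in WT and at 130.5, 108 and 123 CPM in Dlx2OE. The groups overlapped, and the log2 fold change was 0.21 ± 0.122 (SE; 95% confidence interval -0.08 to 0.49; edgeR adjusted p = 0.292). The length- and GC-corrected value was 0.06 (edgeR adjusted p = 0.795).

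Polr1c and Polr1d encode the subunit pair on which both RNA polymerase I and III are assembled. Polr1c (ENSMUSG00000067148) lies at chr17:46243920-46248054 and Polr1d (ENSMUSG00000029642) at chr5:147077050-147111597 (GRCm38). Polr1c was measured at 109, 97.1 and 79.0 CPM in WT and at 77.6, 74.9 and 64.3 CPM in Dlx2OE, giving a log2 fold change of -0.39 ± 0.137 (SE; edgeR adjusted p = 0.109). Polr1d was measured at 94.3, 97.3 and 71.1 CPM in WT and at 66.9, 60.9 and 56.3 CPM in Dlx2OE, giving a log2 fold change of -0.51 ± 0.138 (SE; edgeR adjusted p = 0.0619; DESeq2 adjusted p = 0.0192). Every Dlx2OE sample lay below every WT sample for both genes, and WT sample 3 lay nearest to Dlx2OE. Neither passed the test in edgeR, and their 95% confidence intervals were -0.71 to -0.08 and -0.83 to -0.20. The corrected values were -0.25 and -0.42 (edgeR adjusted p = 0.320 and 0.108).

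Polr1a, the catalytic subunit, was measured at 79.7, 73.1 and 90.1 CPM in WT and at 112, 98.8 and 105 CPM in Dlx2OE. The groups did not overlap, but the log2 fold change of 0.38 ± 0.108 (SE; edgeR adjusted p = 0.0714) missed the threshold, and the length- and GC-corrected value was 0.12 (edgeR adjusted p = 0.556). Rrn3, which carries RNA polymerase I to the promoter, was measured at 79.6, 72.8 and 78.4 CPM in WT and at 96.1, 94.3 and 95.003 CPM in Dlx2OE, giving a log2 fold change of 0.31 ± 0.0850 (SE; edgeR adjusted p = 0.0665). Its groups did not overlap either, and in this case correction left it at 0.34 (edgeR adjusted p = 0.0796). The other members of the group were Polr1b, the second-largest subunit, at 0.17, Ubtf, which keeps ribosomal DNA open, at 0.03, and Polr1e, at -0.16. Together the 8 genes had a median log2 fold change of 0.10, with 5 above 0. In edgeR 0 passed an adjusted p of 0.05 and 4 an unadjusted p under 0.05 (29.5% of all genes). DESeq2 passed 1, Polr1d (12.7% of all genes). With length and GC correction the sign of this median turned, to -0.02, with 4 of the 8 genes below 0.

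The levels of polymerase subunits were also compared within each sample. The ratio of Polr1a to Polr1c was 0.734 to 1.14 in WT and 1.32 to 1.63 in Dlx2OE, and Polr1a to Polr1d was 0.751 to 1.27 in WT and 1.62 to 1.87 in Dlx2OE. Every Dlx2OE sample lay above every WT sample for Polr1a and below for Polr1c and Polr1d, so neither ratio could overlap between the genotypes. The exact permutation p = 0.1 of each, the smallest possible, was thus fixed by the single genes and adds nothing to them. Polr1a has 11871 exonic bases and Polr1c and Polr1d have 2278 and 3043, and the fold changes were related to length, as described further on.

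Among the nucleolar scaffold proteins, Npm1 and Ncl, the abundant histone and RNA chaperones of the granular and fibrillar nucleolus, had fold changes of opposite sign, and neither passed the test. Npm1 was measured at 2233, 2009 and 1539 CPM in WT and at 1625, 1632 and 1289.8 CPM in Dlx2OE, a log2 fold change of -0.35 ± 0.190 (SE; edgeR adjusted p = 0.256). Ncl was measured at 962, 777 and 929.9 CPM in WT and at 1052, 1071 and 872 CPM in Dlx2OE, a log2 fold change of 0.17 ± 0.151 (SE; edgeR adjusted p = 0.484). The groups overlapped for both genes, and the corrected values were -0.28 for Npm1 and 0.02 for Ncl. The helicase Ddx21 was at 0.27, the RNA polymerase I cofactor Nolc1 at 0.14 and Mybbp1a at 0.13.

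The snoRNPs are of 2 kinds. The 4 genes of the box C/D particle, which guides ribose methylation, had a median log2 fold change of -0.02, with Nop56 at -0.13, Nop58 at -0.05, Fbl at 0.0019 and the U3 protein Rrp9 at 0.01. The box H/ACA particle guides the conversion of uridine to pseudouridine, and its proteins also bind telomerase RNA. Its pseudouridine synthase, Dkc1, was measured at 83.8, 76.8 and 98.9 CPM in WT and at 113, 114 and 90.9 CPM in Dlx2OE, a log2 fold change of 0.29 ± 0.134 (SE; edgeR adjusted p = 0.185), with overlapping groups.

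Nhp2 (ENSMUSG00000001056, chr11:51619735-51623714, GRCm38), a core protein of the same particle, had the lowest log2 fold change of the 38 genes. It was measured at 107, 116 and 74.98 CPM in WT and at 73.5, 73.1 and 62.1 CPM in Dlx2OE, and its log2 fold change was -0.52 ± 0.166 (SE; edgeR adjusted p = 0.0932; DESeq2 adjusted p = 0.0389). The groups did not overlap, but WT sample 3 lay just above the highest Dlx2OE sample, and the length- and GC-corrected value was -0.26 (edgeR adjusted p = 0.287). Gar1, the third core protein in the list, was at -0.19. The ratio of Dkc1 to Nhp2 was 0.662 to 1.32 in WT and 1.46 to 1.57 in Dlx2OE (exact permutation p = 0.1, the smallest possible). Dkc1 has 4121 exonic bases and Nhp2 1146, and the fold changes were related to length, as described further on. The corrected value of Dkc1 was 0.34.

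Nop10, the smallest core protein of that particle, was not among the 38 genes but stood in a wider snoRNP list of 19 genes. It was the 1 gene of that list past the threshold in edgeR (5.26%, against 6.45% of all genes). It fell from 87.7 ± 21.8 to 46.2 ± 5.18 CPM (SD, n = 3 each), with a fold of 0.528 and a log2 value of -0.92 ± 0.188 (SE; edgeR adjusted p = 0.0336), and also passed with length and GC correction (-0.73, edgeR adjusted p = 0.0442). WT sample 3, at 62.9 CPM, lay nearer to the Dlx2OE samples (40.9 to 51.3 CPM) than to the other WT samples (96.1 and 104 CPM). The median of the list was -0.09, with 15 of 19 genes below 0, and with length and GC correction it was -0.03, with 11 of 19 below 0.

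Among the 6 genes of small subunit assembly the median log2 fold change was 0.16, and 3 of them had groups that did not overlap, beside 34.1% of all genes. Utp20, a very large scaffold of the small subunit processome, was measured at 101, 78.6 and 86.9 CPM in WT and at 122, 118 and 107 CPM in Dlx2OE. Its log2 fold change was 0.38 ± 0.117 (SE; edgeR adjusted p = 0.0826), and the corrected value was 0.20 (edgeR adjusted p = 0.393). Heatr1, which supports RNA polymerase I transcription and early processing, was at 0.37, and Rrp12, which acts in export of the small subunit, at 0.26. The processome proteins Wdr75, Wdr43 and Nop14 were at 0.06, -0.09 and -0.15, the last with 5.28% of its exonic bases shared with another gene.

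The 10 genes of large subunit assembly had a median log2 fold change of -0.08, with 7 below 0. Sbds, which releases the anti-association factor EIF6 from the new large subunit and is mutated in Shwachman-Diamond syndrome, was measured at 52.8, 52.7 and 42.4 CPM in WT and at 39.0, 38.7 and 36.5 CPM in Dlx2OE. The groups did not overlap, and the log2 fold change of -0.37 ± 0.114 (SE; edgeR adjusted p = 0.0828) missed the threshold, with a corrected value of -0.22 (edgeR adjusted p = 0.224). The assembly factors Nip7, Ebna1bp2 and Nop16 were at -0.33, -0.30 and -0.23. Rrp1b was at 0.24 with groups that did not overlap, the methyltransferase Nop2 was at 0.14, and Pes1, Wdr12 and Bop1 were at -0.08, -0.08 and 0.0013, with the nucleostemin gene Gnl3 at -0.06.

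The fold changes were related to gene length. Across the 38 genes the correlation of log2 fold change with the log2 of exonic length was r = 0.586 (Spearman's rho = 0.646), and across 17496 tested genes with annotation it was 0.180 (rho = 0.284). These are correlations across genes, which share the same 6 libraries and are not independent. The 19 genes of up to 4110 exonic bases had a median log2 fold change of -0.19, with 14 below 0, and the 19 longer genes had a median of 0.17, with 4 below 0. After each sample was corrected for length and GC content, the correlation over the 38 genes was 0.221 (rho = 0.334) and the medians were -0.11 and 0.07. Mycn, with 3295 exonic bases, belongs to the shorter genes and lay far above them. The share of read pairs outside annotated exons was 5.03 to 5.43% in WT and 5.75, 7.81 and 14.7% in Dlx2OE samples 1 to 3, and its part in the relation with length was not tested.

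**Figure D4:**
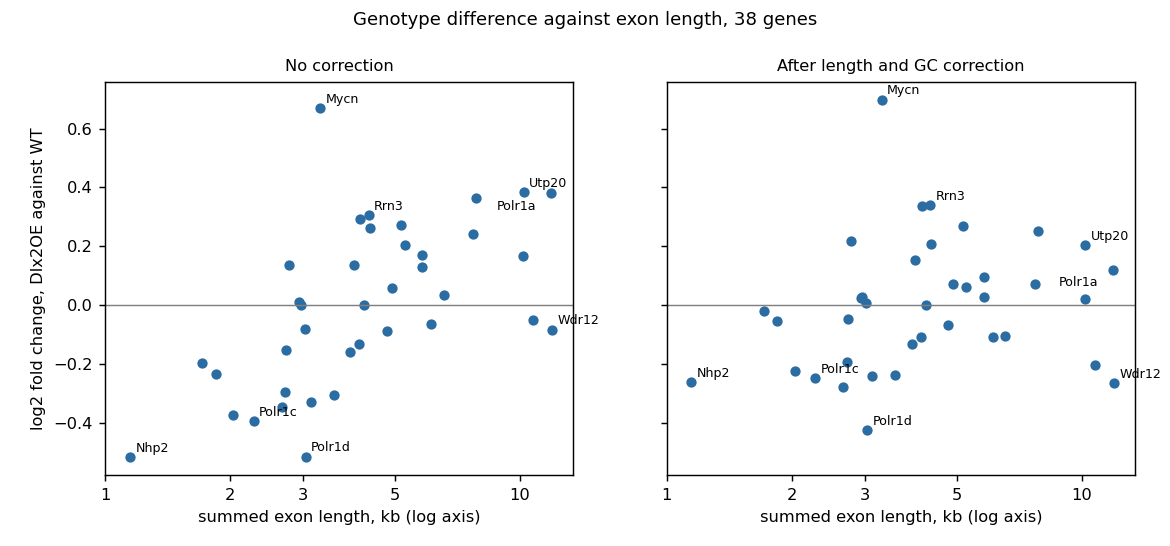
Log2 fold change, Dlx2OE against WT, of the 38 genes against exonic length in kilobases on a log axis, without (left) and with (right) correction of each sample for gene length and GC content. The points climb with length on the left (r = 0.586) and less so on the right (r = 0.221), and Mycn stays at the top in both.

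The samples differed within genotype as well. The median deviation of the 38 genes from their WT mean, in log2 CPM, was 0.13, -0.02 and -0.06 for WT samples 1, 2 and 3. For Dlx2OE samples 1, 2 and 3 it was 0.10, 0.02 and -0.14, so the genotypes overlapped and Dlx2OE sample 3 was the lowest. Dlx2OE sample 3 had the lowest level of its group in 31 of the 38 genes, whereas 34.7% of all tested genes were lowest there. It is also the sample with 14.7% of read pairs outside annotated exons. The number of the 38 genes past an adjusted p of 0.05 in edgeR was 0 without Dlx2OE sample 3, and also without Dlx2OE sample 2 or WT sample 2. It was 1, Mycn, without WT sample 1 or Dlx2OE sample 1, and 6 without WT sample 3, when Polr1a and Mycn were higher and Polr1c, Polr1d, Nhp2 and Sbds lower. The count over all genes moved widely too, from 79 to 2091 in these fits (180 without WT sample 1), so these counts are not particular to the 38 genes.

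The wider assembly lists of the same pathway, Nop10 included, held 4 calls in edgeR. By list, 15.4% of RNA polymerase I genes, 5.26% of snoRNP genes and 2% of large subunit genes passed, against 6.45% of all genes tested. Of 13 further genes of the RNA polymerase I machinery, 2 fell: Polr2k, from 27.3 ± 2.61 to 17.5 ± 2.11 CPM (log2 fold change -0.64, edgeR adjusted p = 0.0392), and Polr2l, from 40.3 ± 7.84 to 23.5 ± 3.96 CPM (-0.77, edgeR adjusted p = 0.0454), both small subunits that all 3 nuclear RNA polymerases share. Neither passed with length and GC correction (edgeR adjusted p = 0.0644 and 0.0822). Of 50 further genes of large subunit assembly, 1 rose, Mdn1, the giant ATPase that strips assembly factors from the precursor. Mdn1 was measured at 104, 78.4 and 98.8 CPM in WT and at 154, 149 and 153 CPM in Dlx2OE, without overlap, and its log2 fold change of 0.70 (edgeR adjusted p = 0.0219) was 0.30 after correction (edgeR adjusted p = 0.244), over 21836 exonic bases. None of 45 further small subunit assembly genes, 20 genes specific to RNA polymerase III or 22 DNA replication genes passed in edgeR. At an unadjusted p under 0.05 in edgeR, 7, 5 and 2 of them passed (29.5% of all genes). DESeq2 passed 3, 1 and 0 at an adjusted p of 0.05 (12.7% of all genes), and their medians were -0.11, 0.09 and 0.05. Nop10, Polr2k, Polr2l and Mdn1 stayed past the threshold without WT sample 3 or Dlx2OE sample 1 and missed it without any 1 of the other 4 samples, with adjusted p of up to 0.134, 0.155, 0.172 and 0.0768 in edgeR.

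The genes of the cytoplasmic ribosomal proteins, which the pathway joins with ribosomal RNA, behaved otherwise. Of 82 genes tested, 26 fell and none rose at an adjusted p of 0.05 in edgeR (31.7%, against 6.45% of all genes), with a median log2 fold change of -0.77 and 80 of 82 below 0, and DESeq2 passed 72. With length and GC correction the median was -0.62, with 12 genes past the threshold. The direction did not rest on 1 sample, as the median was -0.65 to -0.98 with any 1 sample left out, but the count did. It was 73 without WT sample 3, 30 without Dlx2OE sample 1, 3 without Dlx2OE sample 3, 2 without WT sample 1 or Dlx2OE sample 2, and 1 without WT sample 2. Over all genes, the count in these fits ran from 79 to 2091. Rps29 was measured at 600.2, 584 and 334 CPM in WT and at 203, 215 and 164 CPM in Dlx2OE, a log2 fold change of -1.38 (edgeR adjusted p = 0.0203), and Rps28 fell by 1.32 on the log2 scale (edgeR adjusted p = 0.0188). The groups did not overlap, and WT sample 3 stood between the other WT samples and the Dlx2OE samples. The same held over the list. Its median deviation from the WT mean, in log2 CPM, was 0.19, 0.27 and -0.49 for WT samples 1, 2 and 3. For Dlx2OE samples 1, 2 and 3 it was -0.58, -0.70 and -0.94. The named genes Rpl23a (-1.80), Rpl35 (-1.49) and Rpl22l1 (-0.80) also fell, but 62.3% and 66.2% of the exonic bases of the first 2 are shared with other genes, and reads of ribosomal protein genes can also be divided with their processed pseudogenes.

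Hosts of small nucleolar RNAs are spliced transcripts whose introns release the guide RNAs of the snoRNPs. Of 11 tested, 4 fell and none rose in edgeR (3.46% of all genes were lower and 2.99% higher), and DESeq2 passed 7 (12.7% of all genes), with a median log2 fold change of -0.67 (-0.57 after correction, with 4 past the threshold), beside -0.09 for the snoRNP proteins. Snhg8 was measured at 44.0, 47.0 and 29.4 CPM in WT and at 15.5, 15.9 and 16.02 CPM in Dlx2OE (log2 fold change -1.35, edgeR adjusted p = 0.0116), and Gas5 at 277, 294 and 193 CPM in WT and at 118, 138 and 112 CPM in Dlx2OE (-1.05, edgeR adjusted p = 0.0187). Zfas1 and Snhg1 were at -0.90 and -0.55. Without WT sample 3 the count was 7 and without Dlx2OE sample 1 it was 5, whereas Snhg8 alone passed without WT sample 1, Dlx2OE sample 2 or Dlx2OE sample 3, and none passed without WT sample 2 (median -0.58). Over all genes, the count in these fits ran from 79 to 2091. In all 4 named hosts, the groups did not overlap and WT sample 3 was the WT sample nearest to Dlx2OE, and 15.2 to 20.95% of their exonic bases are shared with other annotated genes. Poly-A selected libraries count the host transcript and not the small nucleolar RNA.

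Disturbed ribosome assembly is known to stabilise p53 through free ribosomal proteins, and 21 genes of p53 and nucleolar stress were therefore listed. None rose in edgeR, with 6 of the 21 at an unadjusted p under 0.05 (29.5% of all genes, close to this share) and 4 past an adjusted p of 0.05 in DESeq2 (12.7% of all genes). One fell, Fas, a death receptor and p53 target, from 6.12 ± 0.681 to 2.98 ± 0.457 CPM (SD, n = 3 each; log2 fold change -1.04, edgeR adjusted p = 0.0356), and it is also expressed in blood cells, whose erythroid and macrophage markers were lower in Dlx2OE. The part of those cells in this value was not tested. Fas stayed past the threshold in 2 of the 6 fits that left out 1 sample, with edgeR adjusted p of 0.0396 to 0.110. The median of the 21 genes was -0.17, with 15 below 0. The 1 call in edgeR, Fas, made up 4.76% of them, against 6.45% of all genes.

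**Figure D5:**
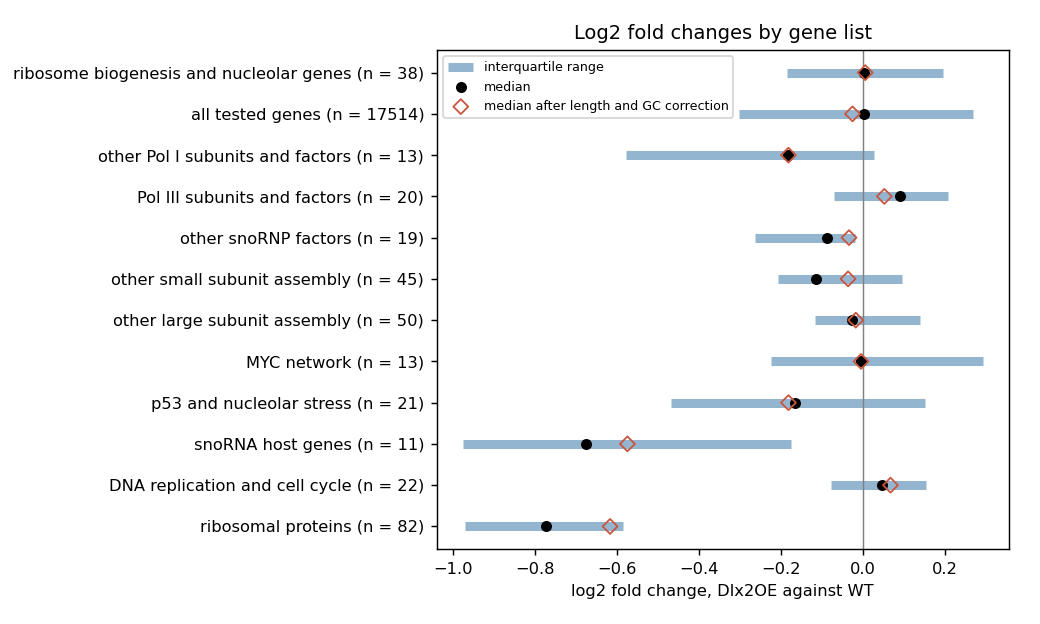
Median log2 fold change, Dlx2OE against WT, of the 38 genes and of each wider list, with the interquartile range as a bar and the median after length and GC correction as a diamond. The ribosomal proteins (-0.77) and the small nucleolar RNA hosts (-0.67) have the lowest medians, and the assembly lists lie between -0.18 and 0.09.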

How the data were processed

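RNA-seq of E12.5 maxillary prominences was taken from 3 WT and 3 Dlx2OE samples. The authors mapped reads to mm10 with STAR 2.7.3a, counted them per gene with HTSeq 0.12.4 in union mode, per the methods and the submitters' processing notes, and deposited raw counts without normalization. The annotation release and the strand setting of the counting are not given in the sources used here. Without strand, reads of overlapping genes cannot be told apart. Summary lines for unassigned reads were kept out of library sizes and tests. They held 5.03 to 14.7% of read pairs outside annotated exons, 5.97 to 6.90% ambiguous pairs and 4.60 to 6.24% pairs mapped to several places, each as a share of these lines plus the gene counts.

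Symbols, positions, lengths and GC content came from GENCODE M21 (GRCm38), and 95 identifiers that it lacks were kept in the tests. Genes were kept by filterByExpr (minimum count 10) and tested for genotype with the quasi-likelihood F test of edgeR 4.0.16 in R 4.3.3, with TMM scaling and Benjamini-Hochberg adjustment over 17514 genes. Thresholds were an adjusted p of 0.05 and, for the fold, a log2 fold change above 1 or below -1. Levels are TMM-scaled CPM, and a prior count of 2 was added before taking log2. TPM values divide the counts by the joined exonic length. A count of 3 was the floor (0.0955 to 0.111 CPM), which covers counting error only. The correction for length and GC content was a loess fit per sample (span 0.5) on log2 length and GC content. DESeq2 1.42.0 was an alternative. The fits were tested on simulated data. The paper describes the samples of each genotype as independent biological replicates. It does not say how the embryos were divided among them, so p-values measure the spread between these samples. No source states that the replicate numbers pair the samples, and the main fit used no pairing.

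The genes and lists were chosen with earlier results of these data known. Full values were given for Tcof1, Polr1c, Polr1d, Myc, Mycn, genes past an adjusted p of 0.05 and the 3 highest and lowest fold changes, and for up to 5 genes with the smallest p of each wider list. Other genes with full values (Rrn3, Npm1, Ncl, Dkc1 and Sbds) and the ratios were chosen after their values were seen. A planned search of protein sequences was not made here.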

Additional observations from a re-analysis of the deposited data

Results flagged for a closer look

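The share of read pairs outside annotated exons, which no comparison of genes uses, was 5.75, 7.81 and 14.7% in Dlx2OE samples 1 to 3. Each is above the 5.03 to 5.43% of the WT samples. The 38 genes had their lowest level within Dlx2OE in sample 3 for 31 genes. The part of this share in the fold changes was not tested.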

How the results depend on the processing

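The median of the 38 genes moved by less than the spread between samples (SD 0.112) under every alternative, and with 1 sample left out it was -0.07 to 0.06, with 15 to 22 of the 38 genes below 0 and none past the fold threshold. Counts of calls moved more, and the causes were not tested. With 1 sample left out, 79 to 2091 of all genes, 0 to 6 of the 38 genes and 0 to 24 genes of the 5 wider assembly lists (RNA polymerase I and III, snoRNP and both subunits, 4 in edgeR with all samples) passed an adjusted p of 0.05. DESeq2 passed 2428 genes, 3 of the 38 and 15 of the assembly lists. Without a filter on low counts edgeR passed 2044, 3 and 14. With length and GC correction 1 gene of the assembly lists passed, and 758 genes in all. Deviations of same-numbered samples did not go together (r = -0.07, -0.21 and 0.07 for replicates 1, 2 and 3). Deviations from a mean of 3 samples constrain one another, so these values cannot exclude a pairing, and the labels state none. A replicate block passed 10 genes of the assembly lists and 961 in all, and the block with length and GC correction 2 and 577. Of the named calls with all samples, the block ended that of Fas (adjusted p = 0.0733 in edgeR) and no other. With correction as well, Fas (0.0938), Snhg1 (0.0562), Polr2k (0.0750), Polr2l (0.0571) and Mdn1 (0.175) missed the threshold. Scaling with RLE factors, a minimum of 10 counts in every sample, and leaving out mitochondrial and haemoglobin genes moved none of these counts by over 1.5 times. Scaling by library size alone moved the median of all genes to 0.07 and that of the 38 genes to 0.07.

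Genes near 0 changed sign. Bop1 was -0.0023 with DESeq2, -0.021 with no filter and -0.0011 with the replicate block. Fbl was -0.00076, -0.020 and -0.0029 in these, and -0.0039 with block and correction. Rrp9 was -0.010 with no filter. Nop58 and Gnl3 were 0.020 and 0.011 with library size alone. With length and GC correction Ubtf was -0.10 and Pes1 0.0092, and with the block added -0.11 and 0.0069. With 1 sample left out, the ranges that crossed 0 were Bop1 -0.069 to 0.035, Fbl -0.079 to 0.082, Gnl3 -0.20 to 0.059, Nop56 -0.27 to 0.0014, Nop58 -0.13 to 0.053, Rrp9 -0.064 to 0.072, Ubtf -0.050 to 0.089, Wdr12 -0.21 to 0.015, Wdr43 -0.18 to 0.040 and Wdr75 -0.043 to 0.14.

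With 3 samples per genotype, the intervals of the 38 genes allow differences of up to a fold of 0.536 or 1.58 among those that missed the threshold, and each gene had at least 664 counts in every library. Leaving out a sample leaves 2 against 3.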
